A study of Mus musculus with 36 samples.

Results

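Spink5, a protease inhibitor, and the proteases of the epidermal kallikrein cascade were read in the neural fraction, as labelled, of mouse stroma from xenografted human oral tumours, in mice on different diets. The set was chosen by name, with earlier results of these data known. It holds 10 genes, namely Spink5, 8 kallikreins (Klk5, Klk6, Klk7, Klk8, Klk10, Klk11, Klk13 and Klk14) and St14. Of these, 7 had a probe set in the array annotation, among 17097 genes with one. Klk5, Klk13 and Klk14 had no listed probe set and were not analysed here. Each of the 7 measured genes had 1 probe set, and all 7 passed the filter on low mean levels, which kept 12823 genes.

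All tumours were orthotopic xenografts in NSG mice, an immunodeficient strain, and the arrays carry mouse probes. The labels place the shRNA in the tumour xenografts and name no targeting of the host's own Cd36, and how far human tumour RNA in the fraction bound the mouse probes was not tested. The tumour cells came from VDH15, labelled as an oral carcinoma line, or from the established line SCC25, and carried either a non-targeting shRNA (PLKO) or an shRNA against CD36 (shCD36), a receptor that takes up fatty acids. Non-targeting tumours of the first VDH15 experiment were compared on 3 diets: control, rich in palmitic acid (palmitate) and rich in oleic acid (oleate), with 4 arrays per group. In SCC25 and in a second VDH15 experiment, both shRNAs were combined with both the control and the palmitate diet, on 3 arrays per group. This gives 11 groups and 36 arrays. Arrays of a group are labelled technical replicates of 1 biological replicate, so a comparison has at most n = 3 experiments, and the spread among arrays may be technical. The labels do not give the number of mice, their age or how many mice were pooled.

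Spink5 encodes LEKTI, a secreted inhibitor of serine proteases made by the upper living layers of stratified epithelium. LEKTI binds several kallikreins (Klk5, Klk7 and Klk14 are its best known targets, of which Klk7 was measured here). Kallikreins are secreted trypsin-like or chymotrypsin-like proteases that cut the desmosomal proteins holding cornified cells together. Matriptase, the product of St14, is a membrane protease that can activate kallikreins of the skin. In Netherton syndrome, loss of LEKTI leaves these proteases unchecked and the barrier fails.

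The kallikreins lie side by side on chromosome 7, where the RefSeq order is Klk14, Klk13, Klk12, Klk11, Klk10, Klk9, Klk8, Klk7, Klk6 and Klk5. Promoters of 4 neighbours are shown because Klk11 and Klk10 were lower on palmitate in every experiment whereas Klk8 and Klk7 were not. Each is the 150 bases before a RefSeq start site in build GRCm38.p6, plus strand, at chr7:43774467-43774616 for the first of the Klk11 starts, chr7:43780904-43781053 for Klk10, chr7:43797427-43797576 for Klk8 and chr7:43811144-43811293 for Klk7. Capitals mark CACCC on either strand (GGGTG on the strand shown), the core of the box that Krüppel-like factors of epithelium bind.
Klk11: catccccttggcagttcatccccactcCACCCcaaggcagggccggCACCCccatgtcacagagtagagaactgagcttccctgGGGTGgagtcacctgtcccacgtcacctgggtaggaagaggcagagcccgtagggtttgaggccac
Klk10: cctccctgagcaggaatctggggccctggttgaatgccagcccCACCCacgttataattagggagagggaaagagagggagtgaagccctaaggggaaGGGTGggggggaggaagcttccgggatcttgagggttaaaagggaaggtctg
Klk8: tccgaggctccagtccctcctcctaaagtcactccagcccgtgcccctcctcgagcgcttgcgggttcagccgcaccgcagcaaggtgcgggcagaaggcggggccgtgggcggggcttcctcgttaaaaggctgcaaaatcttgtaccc
Klk7: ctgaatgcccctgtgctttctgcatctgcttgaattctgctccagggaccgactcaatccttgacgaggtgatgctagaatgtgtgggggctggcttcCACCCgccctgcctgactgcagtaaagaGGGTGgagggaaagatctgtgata
CACCC occurred 3 times before this start of Klk11, 2 times in Klk10 and 2 times in Klk7, and these letters were not in the window of Klk8 or of the second Klk11 start. The motif is common, with a match in 52.0% of 32851 mouse promoters searched over 250 bases on both strands, and it did not divide the genes as their levels did. No match to TGANTCA (AP-1, in 6.75% of promoters), AACCNGTT (grainyhead-like, in 1.79%) or TATAAA (in 12.4%) was found in the 4 windows. Motifs were counted separately, and a match describes letters only.

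The level of a gene is given as the deposited log2 value of its probe set. The deposited values had already been adjusted for experiment, so levels are set against each other only within an experiment. Array medians lay between 5.98 and 6.04. The arrays of the non-targeting palmitate groups were not uniform: replicates 1 and 2 of the first VDH15 experiment and replicate 1 of the second stood apart from the rest on the first principal component, which held 44.5% of the variance, and the main values are given with and without these 3 arrays.

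Spink5, the inhibitor, was lower on the palmitate diet in all 3 experiments with non-targeting tumours. In the first VDH15 experiment its level was 7.29, 7.46, 7.23 and 7.37 on control diet, 4.71, 4.52, 6.02 and 6.37 on palmitate and 6.54, 6.31, 6.56 and 6.54 on oleate. In SCC25 tumours it was 7.80, 7.59 and 7.62 on control diet and 5.51, 5.57 and 5.46 on palmitate. In the second VDH15 experiment it was 7.18, 6.99 and 6.92 on control diet and 3.74, 5.91 and 6.18 on palmitate. Every palmitate array lay below every control array of its experiment, and the 3 lowest values came from the 3 arrays that stood apart.

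The difference of group means, palmitate minus control, was -1.95 ± 0.20 log2 (SD, n = 3 experiments), between -2.15 in SCC25 and -1.75 in the second VDH15 experiment. In the limma fit to the 11 group averages, with experiment as a term, Spink5 fell by 1.95 on the log2 scale (SE 0.22, a fold of 3.85, adjusted p = 0.0154 over 12823 genes). It was the only one of the 7 measured genes to pass at adjusted p under 0.05, beside 6.92% of all genes tested. Without the 3 arrays that stood apart, the fold change was -1.43 log2 (adjusted p = 0.0308, limma). The differences were then -1.14 in the first VDH15 experiment and -0.99 in the second, beside -2.15 in SCC25. The narrow spread between experiments therefore rests on those arrays. Leaving out a whole experiment kept the size but lost the call in 2 of 3 cases: the fold change was -1.84 without SCC25 (adjusted p = 0.167, limma) and -2.04 without the second VDH15 experiment (adjusted p = 0.0754, limma).

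**Figure D1:**
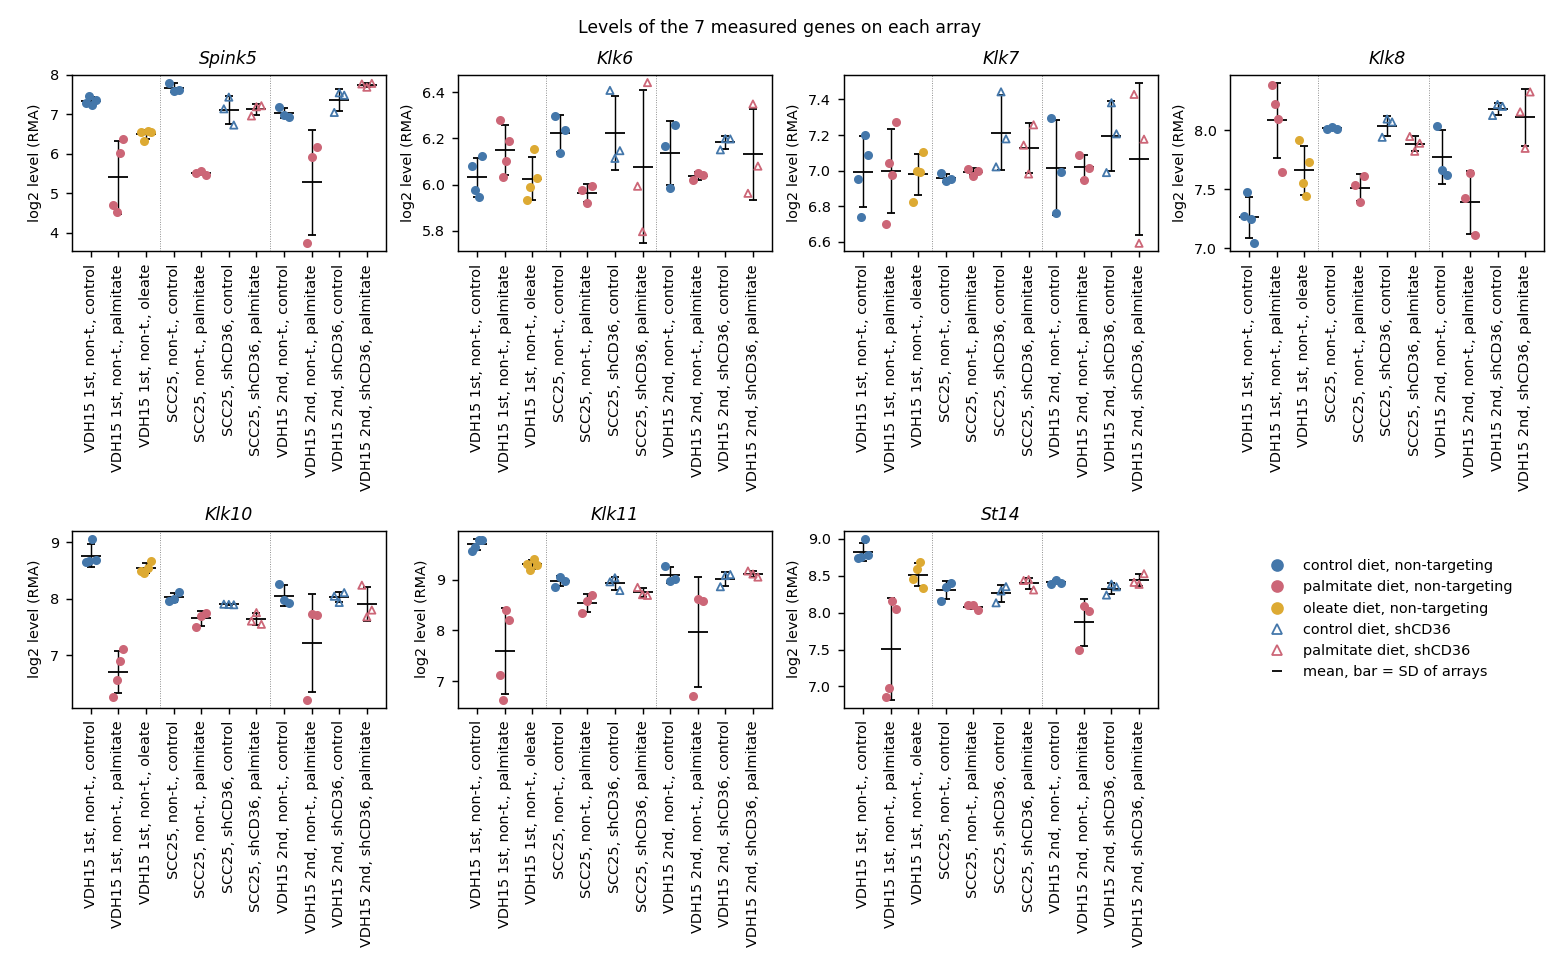
Level (log2, RMA) of the 7 measured genes on each of the 36 arrays, by experiment, shRNA and diet; points are arrays, horizontal lines are group means and bars are the SD of the arrays, and each panel has its own scale. In Spink5, palmitate arrays of non-targeting tumours (filled red) lie under the control arrays (filled blue) of their experiment, whereas in shCD36 tumours (open triangles) the palmitate arrays reach 6.95 to 7.78.

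Among the proteases, Klk11 and Klk10, neighbours in the cluster, were lower with palmitate, with a size that varied between experiments. Klk11, a trypsin-like kallikrein of epidermis, read 9.55, 9.64, 9.78 and 9.77 on control diet and 7.12, 6.65, 8.40 and 8.21 on palmitate in the first VDH15 experiment. It read 8.86, 9.05 and 8.98 against 8.35, 8.57 and 8.70 in SCC25 tumours, and 9.26, 8.97 and 9.01 against 6.72, 8.61 and 8.58 in the second VDH15 experiment. Palmitate and control arrays did not overlap in any of the 3 experiments. The mean difference was -1.21 ± 0.84 log2 (SD, n = 3), from -2.10 in the first VDH15 experiment to -0.42 in SCC25, and the limma fit gave an SE of 0.29 and an adjusted p of 0.0572.

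Klk10, a kallikrein also produced by keratinocytes, read 8.65, 8.67, 9.06 and 8.69 on control diet and 6.26, 6.57, 6.90 and 7.11 on palmitate in the first VDH15 experiment. Its values were 7.97, 7.99 and 8.11 against 7.50, 7.70 and 7.76 in SCC25 tumours, and 8.26, 7.98 and 7.92 against 6.21, 7.73 and 7.72 in the second VDH15 experiment. Again no palmitate array reached a control array, but the difference was -0.37 in SCC25 and -2.06 in the first VDH15 experiment. The mean difference was -1.09 ± 0.87 log2 (SD, n = 3; adjusted p = 0.0725, limma).

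St14, the membrane protease, followed the same order on a smaller scale. In the first VDH15 experiment it read 8.74, 8.75, 8.999 and 8.78 on control diet and 6.85, 6.98, 8.16 and 8.05 on palmitate. The SCC25 arrays were 8.16, 8.35 and 8.39 against 8.10, 8.11 and 8.04, and the second VDH15 arrays 8.39, 8.44 and 8.39 against 7.50, 8.08 and 8.02. The groups did not overlap, although in SCC25 the nearest arrays were 8.16 and 8.11. The mean difference was -0.69 ± 0.56 log2 (SD, n = 3; adjusted p = 0.0708, limma).

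Spink5, Klk10, Klk11 and St14 were thus the 4 of 7 measured genes whose palmitate arrays lay below the control arrays in all 3 experiments, beside 5.12% of all genes tested. This held without the 3 arrays that stood apart, but the differences of Klk11 became -1.39 and -0.49 in the first and second VDH15 experiments, those of Klk10 -1.76 and -0.33, those of St14 -0.71 and -0.36, and those of Spink5 -1.14 and -0.99. The median log2 fold change of the 7 measured genes was -0.69, beside -0.03 over all genes tested. The genes were chosen with earlier results of these data known, so these comparisons with all genes are descriptions and no test.

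Klk8, Klk7 and Klk6, which follow in the cluster after Klk9, did not share this pattern. Klk8, also called neuropsin, is a trypsin-like kallikrein of brain and skin. In the first VDH15 experiment it read 7.28, 7.48, 7.25 and 7.04 on control diet and 8.38, 8.22, 8.10 and 7.64 on palmitate. In SCC25 it read 8.01, 8.03 and 8.01 against 7.54, 7.39 and 7.61, and in the second VDH15 experiment 8.04, 7.66 and 7.62 against 7.42, 7.64 and 7.11. Klk8 was therefore higher by 0.83 log2 in the first VDH15 experiment, lower by a difference of -0.50 in SCC25 and overlapping, at -0.38, in the second VDH15 experiment. Averaged, the fold change was -0.02 log2, with a 95% interval from -0.62 to 0.58 in the limma fit.

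Klk7, the chymotrypsin-like kallikrein of the horny layer, ranged from 6.59 to 7.44 over all 36 arrays, and its palmitate fold change was 0.01 log2 (95% interval -0.13 to 0.15, limma). Klk6, a trypsin-like kallikrein found in brain and epithelium, ranged from 5.80 to 6.44, with a fold change of -0.08 log2 (95% interval -0.28 to 0.12, limma). Its arrays were lower without overlap in SCC25, by a difference of -0.26, and overlapped in both VDH15 experiments. The deposited values carry no detection calls, so whether the Klk6 and Klk7 probe sets read above background was not tested.

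**Figure D2:**
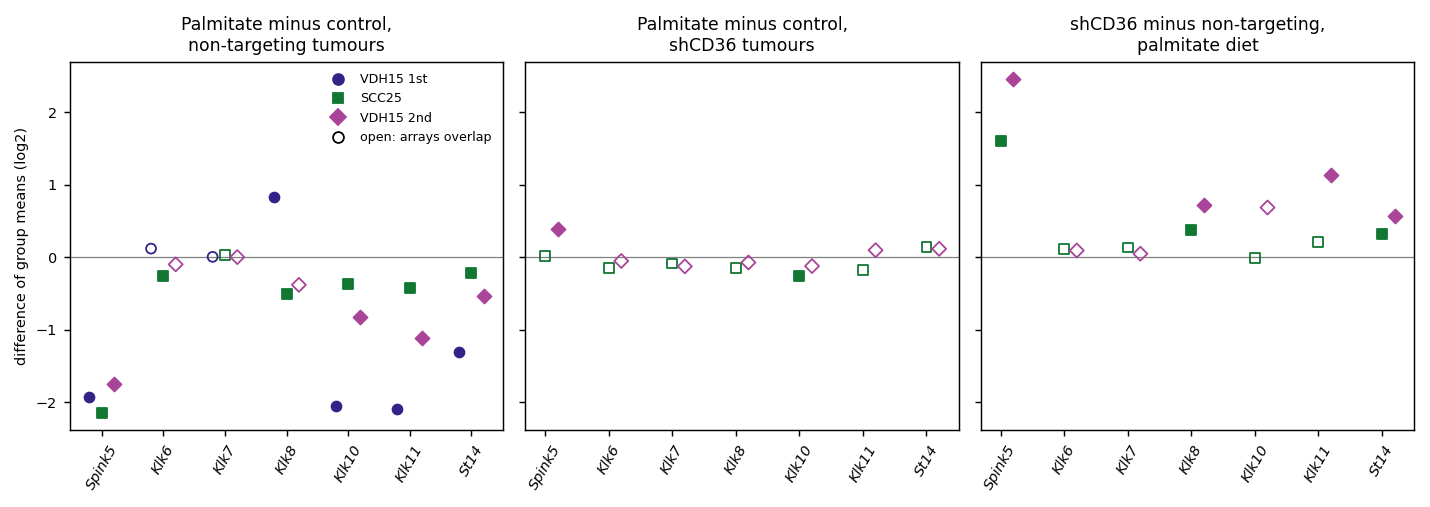
Difference of group means (log2) for the 7 measured genes in each experiment: palmitate minus control in non-targeting tumours (left), the same in shCD36 tumours (middle), and shCD36 minus non-targeting on palmitate (right); filled symbols mark groups whose arrays do not overlap. Spink5 lies between -2.15 and -1.75 on the left, at 0.02 and 0.39 in the middle and at 1.60 and 2.47 on the right, while Klk8 changes side between experiments.

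Inhibitor and proteases were also set against each other within each experiment, by subtracting the protease's palmitate difference from that of Spink5. Against Klk7 and Klk6, Spink5 was lower by differences of -1.96 ± 0.22 and -1.87 ± 0.20 log2 (SD, n = 3 experiments). Against Klk8 the difference was -1.93 ± 0.73, and against St14 it was -1.26 ± 0.65, negative in all 3 experiments. For Klk10 and Klk11 it was -0.86 ± 0.96 and -0.74 ± 0.95, and its sign was not the same throughout. Without the 3 arrays that stood apart the same values were -1.47 ± 0.64 for Klk7, -1.35 ± 0.51 for Klk6, -1.33 ± 0.64 for Klk8, -0.998 ± 0.81 for St14, -0.61 ± 1.20 for Klk10 and -0.66 ± 0.996 for Klk11. The narrow spread against Klk7 and Klk6 therefore rests on these arrays: without them, Spink5 minus Klk7 was -1.27 in the first VDH15 experiment, -2.19 in SCC25 and -0.95 in the second VDH15 experiment. With all arrays, the differences for Klk10 and Klk11 were 0.13 and 0.16 in the first VDH15 experiment, and -1.78 and -1.73 in SCC25. Klk7 and Klk6 varied little over all arrays, and whether their probe sets read above background was not tested. The values against them may therefore not measure inhibitor against protease. All of these are descriptions of 3 values per gene with no test. In shCD36 tumours the same subtraction gave values between -0.12 and 0.51 over the 6 proteases and 2 experiments.

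**Figure D3:**
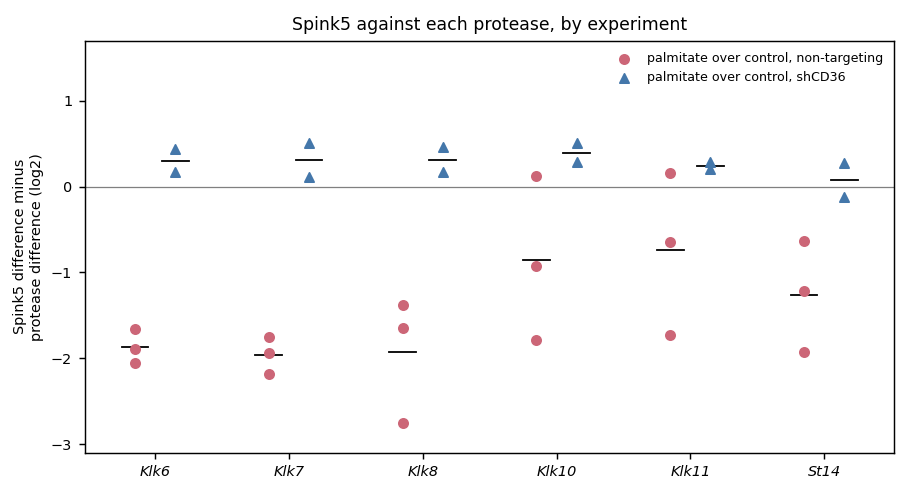
Palmitate difference of Spink5 minus that of each measured protease (log2), with 1 point per experiment and a line at the mean; non-targeting tumours have 3 points (red circles) and shCD36 tumours 2 (blue triangles). The red points of Klk10 and Klk11 run from 0.13 and 0.16 down to -1.78 and -1.73, while those of Klk7 stay between -2.19 and -1.76.

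In shCD36 tumours no change of Spink5 with palmitate passed the test. Its arrays read 7.13, 7.43 and 6.72 on control diet and 6.95, 7.19 and 7.21 on palmitate in SCC25, and 7.04, 7.54 and 7.48 against 7.76, 7.68 and 7.78 in the second VDH15 experiment. The arrays overlapped in SCC25, and in the second VDH15 experiment all palmitate arrays were the higher ones. The limma fold change was 0.20 log2 (95% interval -0.44 to 0.85, n = 2 experiments). None of the 7 measured genes, and 0% of all genes tested, passed in this comparison, although 282 genes had an unadjusted p under 0.05. No measured gene was lower without overlap in both experiments, beside 1.34% of all genes. Klk10 was lower without overlap in SCC25 alone, by a difference of -0.26, at 7.91, 7.90 and 7.90 on control diet and 7.61, 7.76 and 7.55 on palmitate.

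On the palmitate diet, shCD36 tumours had more Spink5 than non-targeting tumours. The difference of group means was 1.60 log2 in SCC25 and 2.47 in the second VDH15 experiment, without overlap in either, and limma gave 2.03 (SE 0.26, a fold of 4.09, adjusted p = 0.0452). Spink5 was 1 of 48 genes called, beside 0.374% of all genes tested. The call was lost without the 3 arrays that stood apart, with a fold change of 1.58 (adjusted p = 0.0883, limma). It was also lost without SCC25, at 2.51 (adjusted p = 0.184, limma), and without the second VDH15 experiment, at 1.55 (adjusted p = 0.662, limma).

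Klk11 (0.89 ± 0.34, SE), St14 (0.60 ± 0.22) and Klk10 (0.58 ± 0.35) did not pass in this comparison, with adjusted p-values of 0.235, 0.214 and 0.429 in limma. Spink5, St14 and Klk8 had all shCD36 arrays above all non-targeting arrays in both experiments, beside 7.19% of all genes. For St14 the differences were 0.32 in SCC25 and 0.57 in the second VDH15 experiment. For Klk8 they were 0.37 and 0.72. Klk11 was separated in the second VDH15 experiment, at 1.14, and overlapped in SCC25, at 0.21. Klk10 overlapped in both, at -0.02 in SCC25 and 0.69 in the second VDH15 experiment. The plain means of these 2 experiments were 0.67 for Klk11, 0.44 for St14 and 0.33 for Klk10, under the limma values. Cell type markers moved in the same comparison: the 5 tested suprabasal keratinocyte genes were all above 0, with a median of 1.47 log2, the 3 fibroblast genes all below 0, with a median of -1.58, and the 4 endothelial genes all below 0, with a median of -1.22. None of these passed limma, and their medians were 0.74, -1.33 and -1.07 without the 3 arrays. With all arrays, the median over all 5 measured fibroblast genes was -0.57, and over all 6 suprabasal genes 1.20. The part of these markers in the difference of Spink5 was not tested.

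On control diet Spink5 did not differ in one direction between the shRNAs. It was lower in shCD36 tumours by a difference of -0.57 in SCC25 and higher by 0.33 in the second VDH15 experiment, and the limma fold change was -0.12 log2 (95% interval -0.74 to 0.50). None of the 7 measured genes passed, nor did any other gene (0%), although 435 genes had an unadjusted p under 0.05. Within SCC25 the Spink5 means ordered as non-targeting palmitate 5.51 ± 0.06 (SD of 3 arrays), shCD36 control 7.10 ± 0.35, shCD36 palmitate 7.12 ± 0.14 and non-targeting control 7.67 ± 0.11. The middle pair did not differ beyond its spread. In the second VDH15 experiment the order was non-targeting palmitate 5.27 ± 1.34, non-targeting control 7.03 ± 0.13, shCD36 control 7.35 ± 0.27 and shCD36 palmitate 7.74 ± 0.05.

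The difference between the palmitate effects of shCD36 and non-targeting tumours was tested directly. It was 2.15 log2 for Spink5 (SE 0.35, 95% interval 1.32 to 2.99), with an adjusted p of 0.0914 in limma, so it did not pass. No gene passed (0%), and 2011 had an unadjusted p under 0.05. Without the 3 arrays that stood apart it was 1.63 (adjusted p = 0.152, limma). Estimates of the fit that set shCD36 against non-targeting tumours borrow from the first VDH15 experiment, which had no shCD36 tumours. For Spink5 the plain differences were close to the fit, at 2.17 in SCC25 and 2.14 in the second VDH15 experiment (1.37 without the array that stood apart there). For the proteases they do not always: Klk11 was at 1.17 in the fit and at 0.24 and 1.21 within SCC25 and the second VDH15 experiment. Klk10 was at 0.89 in the fit against 0.11 and 0.71, and St14 at 0.82 against 0.36 and 0.66. Klk8 changed sign, from -0.09 in the fit to 0.35 and 0.31. The comparisons above share the non-targeting palmitate arrays, so their values are not independent of each other.

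The oleate diet was given in the first VDH15 experiment only, so these values rest on n = 1 experiment. Spink5 lay between the other diets, at 6.49 ± 0.12 (SD of 4 arrays) on oleate, 7.34 ± 0.10 on control and 5.40 ± 0.93 on palmitate. Against control, Spink5, Klk11 and St14 were lower on oleate without overlap, by differences of -0.85, -0.39 and -0.30, beside 9.06% of all genes. Klk10 overlapped, at -0.23. No gene passed the limma test of oleate over control (0%), and 225 genes had an unadjusted p under 0.05.

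Palmitate was set against oleate on the same arrays. Klk10, at 8.49, 8.47, 8.54 and 8.67 on oleate, was lower on palmitate by a difference of -1.83 without overlap. Klk11, at 9.31, 9.18, 9.41 and 9.29 on oleate, differed by -1.71, and St14, at 8.45, 8.59, 8.68 and 8.33, by -1.001, both without overlap, beside 20.5% of all genes. Spink5 differed by -1.09, with the highest palmitate array at 6.37 and the lowest oleate array at 6.31. Without the 2 palmitate arrays that stood apart, the differences were -0.30 for Spink5, -1.54 for Klk10, -0.996 for Klk11 and -0.41 for St14, so most of the Spink5 difference rested on those arrays. None of the measured genes passed limma, beside 0.039% of all genes. The oleate estimates of the fit borrow the condition effects of the other experiments and differ from these plain differences: for Klk10, oleate over control was 0.26 log2 in the fit.

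The wider protease system of stratified epithelium was read from 4 lists. These were likewise chosen with earlier results of these data known, so their counts and medians beside all genes are descriptions. Of 16 other protease inhibitors, 10 were tested, and 3 fell with palmitate in non-targeting tumours, none rising, beside 6.92% of all genes called. Spint1, whose product HAI-1 inhibits matriptase, fell by 1.02 on the log2 scale (SE 0.14, adjusted p = 0.0196, limma). Serpinb3a, a serpin of squamous epithelium, fell by 1.96 (adjusted p = 0.0391), and Csta1, a cystatin that inhibits cysteine proteases, by 0.98 (adjusted p = 0.0443). All 10 estimates were below 0, with a median of -0.68 beside -0.03 over all genes. Without the 3 arrays that stood apart, Spint1 was the 1 inhibitor still called, beside 4.67% of all genes, and the median was -0.42.

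Of 15 other proteases, 13 were tested, of which 3 fell and 1 rose, beside 6.92% of all genes called. Tmprss13 and Tmprss4, membrane serine proteases, fell by 1.32 (SE 0.18, adjusted p = 0.0191, limma) and 1.20 (SE 0.17, adjusted p = 0.0206, limma), and Capn1, a calpain, by 0.48 (adjusted p = 0.0346, limma). Ctsl, the lysosomal cathepsin L, rose by 0.54 (SE 0.09, adjusted p = 0.0291, limma). The median was -0.48, and -0.37 without the 3 arrays, where the same 4 genes were called, beside 4.67% of all genes. Both inhibitors and proteases were thus among the genes that fell.

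Of 12 substrates and targets, 7 were tested, with a median of 0.01. Under the filter on low levels lay Dsg1a and Dsg1b, copies of desmoglein 1, a main kallikrein target, and Flg, the filaggrin gene, with estimates of -2.03, -1.71 and -0.35 log2 that were not among the genes tested. Over the 10 measured genes the median was -0.33. Scnn1a, a subunit of the epithelial sodium channel that such proteases activate, fell by 0.69 (adjusted p = 0.0432, limma), a call that was lost without the 3 arrays. Dsc1, a desmosomal cadherin cut by kallikreins, was at -1.52 log2 (SE 0.36, adjusted p = 0.0563, limma) and did not pass. Of the 7 tested, 4 had estimates above 0, up to 0.35, among them Cdsn at 0.10 (adjusted p = 0.873, limma). Of 18 other kallikreins, 6 were tested and none passed, with a median of -0.03; the smallest p-values belonged to Klk1, the tissue kallikrein, at -0.08 (adjusted p = 0.490, limma), and Klk1b24, at -0.06 (adjusted p = 0.712, limma). Genes of the Klk1b family are close copies, and a probe set may read more than 1 of them. No gene of the 4 lists passed in shCD36 tumours or in shCD36 over non-targeting on palmitate, where the inhibitors had a median of 0.79 and the proteases of 0.59, beside 0.03 over all genes.

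**Figure D4:**
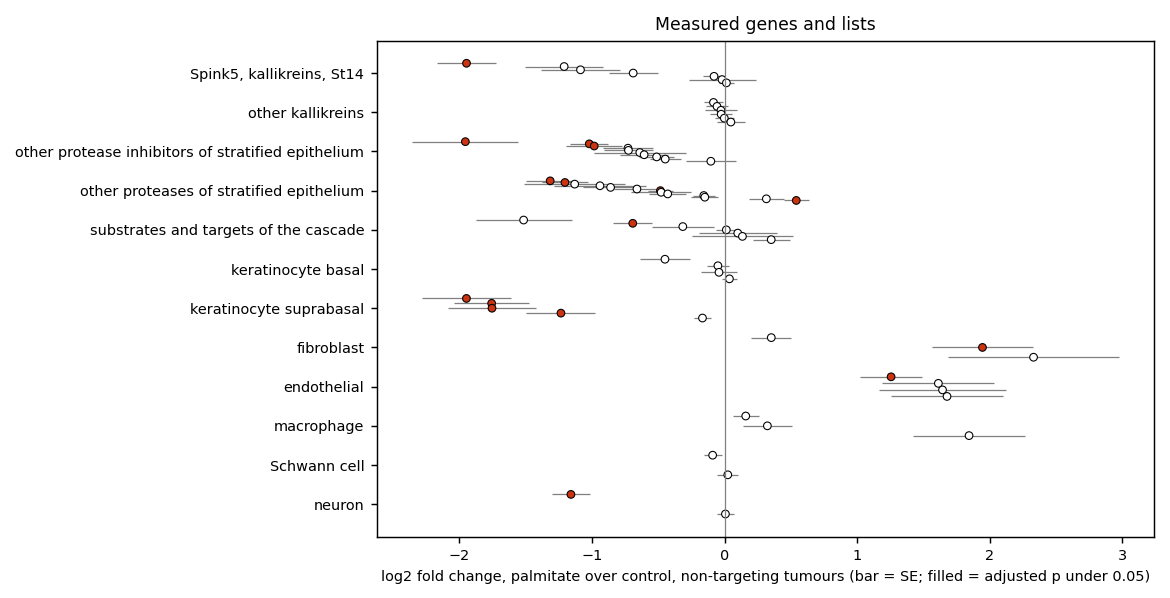
Log2 fold change of palmitate over control in non-targeting tumours (limma, 11 group averages) for the measured genes, the 4 lists of the protease system and the cell type markers; each point is a tested gene, bars are SE and filled points have an adjusted p under 0.05. Suprabasal Krt4, Krt10, Krt13 and Lor lie with Spink5 at the left, from -1.95 to -1.23, while suprabasal Ivl lies at -0.17. Basal Krt5 and Krt14 lie at 0.04 and -0.05, and basal Trp63 at -0.45.

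Spink5 is a product of differentiated keratinocytes, and markers of the cells that could be in the fraction were read beside it. These markers were also chosen with earlier results of these data known. The basal keratinocyte genes Krt5 and Krt14 had fold changes of 0.04 and -0.05 log2 with palmitate in non-targeting tumours. Itga6 was at -0.04 and Trp63, a basal transcription factor, at -0.45 (95% interval -0.90 to -0.0034), and none of these 4 basal genes passed. Of 6 suprabasal genes 5 were tested (Krt1 was under the filter), and 4 fell: Krt4 by 1.95, Krt10 by 1.76, Lor, which encodes the cornified envelope protein loricrin, by 1.75 and Krt13 by 1.23 on the log2 scale, beside 6.92% of all genes called. The remaining tested gene, Ivl, was at -0.17 and was not called. Without the 3 arrays that stood apart, Krt10 alone was called and the median of the 5 went from -1.75 to -0.90. In shCD36 tumours none of the 5 passed, and their median was -0.08. The log2 of the summed suprabasal level ranged in SCC25 from 12.4 to 12.5 on control diet and from 10.998 to 11.3 on palmitate, and in shCD36 tumours from 12.2 to 12.6 over both diets. The summed basal level lay between 13.9 and 14.0 in all SCC25 groups. In the second VDH15 experiment the summed suprabasal level was 12.1 to 12.2 on control diet and 10.4 to 12.1 on palmitate. The medians there were 12.22 on control diet and 12.03 on palmitate, so only the lowest palmitate array lay far under control. In the first VDH15 experiment the summed suprabasal level was 12.3 to 13.7 against 9.11 to 12.8. The summed basal level was 14.1 on control diet and 13.6 to 14.1 on palmitate in the first VDH15 experiment, and 13.9 against 13.95 to 14.03 in the second.

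Other cell types also moved with the diet. Of 5 fibroblast genes 3 were tested, with a median of 1.94, and Lum passed, at 1.94, but not without the 3 arrays. The lowest tested estimate was 0.35. With Col1a2 and Pdgfra, which were under the filter, the median of all 5 was 0.35. Of 4 endothelial genes, Vwf passed, at 1.26, and the median was 1.63. The 3 tested macrophage genes had a median of 0.32 and ran from 0.16 to 1.84, with none called. Without the 3 arrays that stood apart, Lyz2 was called higher, beside 4.67% of all genes called. In SCC25 the log2 of the summed fibroblast level was 11.7 to 11.9 on control diet and 14.6 to 14.9 on palmitate. The shift was smaller in the first VDH15 experiment, from 12.5 to 12.8 against 13.1 to 13.4, and in the second, from 12.1 to 12.6 against 13.5 to 14.1. In a bulk sample, fewer keratinocytes and less RNA per keratinocyte cannot be told apart, and the part of cell composition in the fall of Spink5 was not tested. Nor was the part of human tumour RNA that may have bound the mouse probes.

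Defining markers of the labelled neural identity were read in part. Of the Schwann cell markers read, S100b was under the filter on low levels, and Sox10 and Mbp, the 2 that were tested, had a median fold change of -0.03 log2. Of 4 neuronal genes, Snap25 and Elavl4 were under the filter, Tubb3 fell by 1.16 on the log2 scale (adjusted p = 0.0171, limma) and Prph was at 0.006 (adjusted p = 0.967, limma).

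The genes most like Spink5 over the 11 group averages, centred within each experiment, were ranked by the root mean square difference. The nearest 6 named genes were Psapl1 (0.18 log2), Ppl (0.18), Pla2g4f (0.20), Krtdap (0.22), Tgm3 (0.25) and Calm4 (0.25). Ppl encodes periplakin of the cornified envelope, Tgm3 an epidermal transglutaminase and Krtdap a secreted protein of differentiating keratinocytes. Among 12822 genes compared, Klk11 ranked 129 (0.51 log2), Klk10 ranked 258 (0.60), St14 ranked 331 (0.63) and Klk8 ranked 2898, with Klk6 and Klk7 further away. The averages share arrays, and Spink5 itself varied by 0.85 log2 about its experiment means, so this is a description of 11 groups.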

How the data were processed

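The deposited values are log2 intensities of 36 mouse Affymetrix arrays, made by the authors with RMA in affy, per the submitters' processing notes; the array's genome build is not given in the sources used here. Batch coefficients were below 1e-06 in 100% of 45141 probe sets with diet and shRNA in the model, against 0.00222% without, so the deposited values carry an adjustment for experiment and scan batch and were not adjusted again. The number of experiments, at most 3 per comparison, limits the precision. Probe sets with 1 gene (28898) were used, 551 with several genes were not, and the probe set with the highest mean stood for a gene. The lowest 25% of genes by mean (under 5.19 log2) were left out. After averaging the arrays within groups, the 11 averages entered limma 3.58.1 (R 4.3.3) with terms for condition and experiment, Benjamini-Hochberg adjusted over 12823 genes; residual degrees of freedom were 4 and prior ones 2.70. Named genes were all measured members, the called genes of each list, in lists with fewer than 2 called genes those with the smallest p, and the 6 genes nearest to Spink5. Members and lists were chosen with earlier results of these data known. Counts for the lists without the 3 arrays that stood apart, and medians over genes under the filter, were added after seeing the data. Promoters come from RefSeq, GRCm38.p6; no St14 or Spink5 sequence is shown.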

Additional observations from a re-analysis of the deposited data

Results flagged for a closer look

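In groups of 4 arrays, 21 combinations of gene and group were checked for an array far from the others, and chance alone marks about 1 in 20. The lowest oleate array of Spink5 in the first VDH15 experiment, at 6.31 log2, lay apart from the other 3. The highest control values of Klk10, at 9.06, and of St14, at 8.999, in the same experiment lay apart likewise. Both came from 1 array, control replicate 3. Klk8 moved in opposite directions under palmitate in non-targeting tumours: all arrays were higher in the first VDH15 experiment, by 0.83 log2, and all were lower in SCC25, with a difference of -0.50. The difference between these experiments was not tested.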

How the results depend on the processing

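Under palmitate over control in non-targeting tumours, 1 measured gene passed limma. The count was 4 (Spink5, Klk10, Klk11 and St14) without an experiment term, with duplicateCorrelation on 36 arrays, and with arrays as units either without or with array number as a replicate block; it was 2 (Spink5 and Klk11) after a second quantile normalization, and 0 to 1 when 1 experiment was left out. For shCD36 over non-targeting on palmitate the count was 1, and it was 4 with arrays as units, 3 with the replicate block, 0 with the groups of the contrast alone, without a filter on low values, without the 3 arrays that stood apart or with scan batch 2 alone, and 0 to 1 with 1 experiment left out. For the difference of the palmitate effect it went from 0 to 1 (Spink5) without an experiment term and with duplicateCorrelation, and to 4 with arrays as units, with or without the block. For palmitate over oleate it went from 0 to 1 (Klk10) with duplicateCorrelation and to 4 with arrays as units, with or without the block. Arrays as units take technical replicates as independent. Array numbers did not pair the arrays: same-numbered arrays correlated in their deviations between -0.27 and 0.33, above 0.1 in 9 of 48 pairs. The adjusted p of Spink5 for palmitate over control ran from 4.12e-08 to 0.167 over all alternatives, and that for shCD36 over non-targeting on palmitate from 2.78e-06 to 0.662; no fold change of a called gene changed sign. The all-gene count for palmitate over control was 887, and 3001 without an experiment term, 3052 with duplicateCorrelation, 5542 and 5263 with arrays as units without and with the block, 1062 after a second quantile normalization, 599 without the 3 arrays, 34 with the groups of the contrast alone and 224, 0 and 0 with the first VDH15, SCC25 or second VDH15 experiment left out. For shCD36 over non-targeting on palmitate the all-gene count was 48, 3462 and 3175 with arrays as units without and with the block, and 6 without the 3 arrays. For the difference of the palmitate effect it was 0, 699 without an experiment term, 1052 with duplicateCorrelation, and 3310 and 3012 with arrays as units. For palmitate over oleate it was 5, 581 with duplicateCorrelation, and 3583 and 3176 with arrays as units. Oleate over control could not be fitted with its own groups alone or without the first VDH15 experiment. The cause of these shifts was not tested.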
